A study of Mus musculus with 9 samples.

Results

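The dystrophin glycoprotein complex spans the membrane of a muscle fibre. Dystrophin binds actin filaments inside the fibre, dystroglycan binds laminin outside it, and the sarcoglycans, syntrophins and dystrobrevins assemble around these 2 proteins. The complex protects the membrane during contraction and anchors signalling proteins such as neuronal nitric oxide synthase, and loss of some of its members causes muscular dystrophies. The complex was represented by 8 genes picked by symbol, namely Dmd, Utrn, Sgca, Sgcb, Sgcd, Dag1, Sntb1 and Dtna, each with 1 row among the 13179 genes of the deposited table. The rule used the symbols and no threshold on a measured value, although earlier results of these data were known when it was set.

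Polyadenylated RNA was measured in 9 libraries of gastrocnemius, a calf muscle rich in fast fibres, from mice that had all been fed a high-fat diet (HFD) for 6 weeks. The groups, of 3 libraries each, were labelled control, p38alphaMCK-KO (αKO below and in the plots) and p38alpha/gammaMCK-KO (αγKO). MCK stands for muscle creatine kinase, whose promoter is active in differentiated striated muscle fibres, so deletions made with it spare the other cells of the muscle. Age, sex, the Cre line and whether the controls carried it are not given in the sources used here, and no group fed another diet was analysed here. The labels number the samples of a group without saying that each is its own mouse, so the p-values rest on library-to-library spread, which may be technical.

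Mapk14, which encodes p38α, measured from 142.7 to 156.7 in the controls, 40.3 to 45.5 in the αKO and 37.0 to 54.7 in the αγKO. Mapk12, which encodes p38γ, measured from 137.9 to 152.2, 96.5 to 105.1 and 31.2 to 35.5 in the same order. These are normalised values per library on the deposited scale. Both genes followed the labels, and Mapk12 was also lower in the αKO (log2 −0.49, limma adjusted p = 0.00601). The depth inferred from the values ran from 23.8 to 27.9 M reads. Library 1 of the αKO stood apart from its group, at 36 on the first principal component (54.2% of the variance) against 1 and −9.15 for libraries 2 and 3 and −29.6 to −34 for the controls. The αγKO libraries scored 11.5, 31.5 and 23.9, so αKO 1 lay nearer to them than to the rest of its group. All 10 fast fibre markers were abundant in every library, as a gastrocnemius label implies.

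All 8 members passed the low-value filter. In the αKO, 2 of the 8 were called lower and 0 higher by limma, at an adjusted p below 0.05 over 13137 genes. Of all tested genes 17.8% were called in that comparison, 7.32% higher and 10.4% lower. In the αγKO, 4 of the 8 were called lower and 0 higher, beside 25.6% of all tested genes, 11.2% higher and 14.4% lower. At an unadjusted p below 0.05, 3 members were lower in the αKO, where 18.1% of all tested genes were lower and 15.9% higher by that rule. In the αγKO 5 were lower, beside 20.9% of all tested genes lower and 20.1% higher, and 0 members were higher in either. The median log2 difference of the members was −0.22 and −0.43, against 0.01 and 0.02 over all tested genes. Dmd and Sgcb were called in both knockouts, and Dag1 and Dtna in the αγKO and not in the αKO. Both comparisons share the 3 control libraries. In bulk tissue, fewer fibres and less RNA per fibre cannot be told apart.

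**Figure D1:**
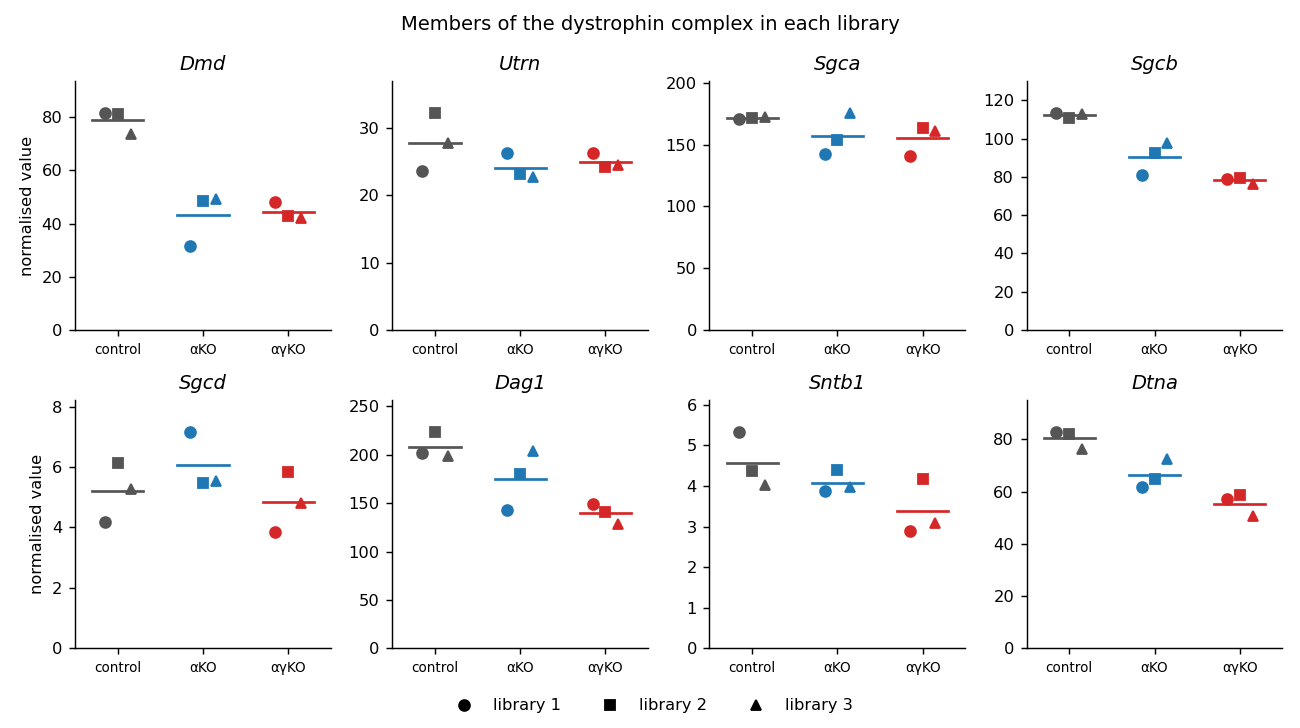
Normalised value (y axis, from 0) of each member in each library, with the group mean as a line and the library number as the symbol. Dmd, Sgcb and Dtna lie below all 3 controls in every knockout library. Dag1 and Sgca do so in every αγKO library, and Utrn, Sgcd and Sntb1 overlap between groups.

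Dmd encodes dystrophin, the large cytoskeletal protein whose loss causes Duchenne muscular dystrophy. The gene (ENSMUSG00000045103) lies on chromosome X, at 82948870 to 85206141 on the plus strand of GRCm38. It measured 81.4, 81.1 and 73.8 in the controls, 31.7, 48.5 and 49.4 in the αKO and 48.1, 42.7 and 41.9 in the αγKO. All 6 knockout libraries lay below all 3 controls, and the lowest was library 1 of the αKO. The group means were 78.8 ± 4.32, 43.2 ± 9.95 and 44.2 ± 3.35 (SD, n = 3). Dmd fell 1.84-fold in the αKO (log2 −0.88, 95% interval −1.22 to −0.53, limma adjusted p = 0.00697). In the αγKO it fell 1.77-fold (log2 −0.82, 95% interval −1.16 to −0.48, limma adjusted p = 0.00837). Fold changes throughout are those of value + 1. With library 1 of the αKO left out, the difference was −0.67. The exact permutation test of 3 against 3 libraries gave p = 0.1 for Dmd in both comparisons, the smallest it can give. One value per gene covers the full-length form and the shorter forms made from internal starts.

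The members called lower, other than Dtna, were read beside the DNA before their starts. No window of Dtna or of Sntb1 was searched. The windows below are the 250 bases before the RefSeq start on GRCm38.p6, written 5′ to 3′ on the gene's strand, and capitals mark motif matches. They are shown for 2 called members and for Sgca, which was not called. Dmd is shown at its most upstream start (chrX:82948620-82948869, plus strand), Dag1 at chr9:108263959-108264208 (minus strand) and Sgca at chr11:94976328-94976577 (minus strand), none of them inside an annotated exon.
Dmd: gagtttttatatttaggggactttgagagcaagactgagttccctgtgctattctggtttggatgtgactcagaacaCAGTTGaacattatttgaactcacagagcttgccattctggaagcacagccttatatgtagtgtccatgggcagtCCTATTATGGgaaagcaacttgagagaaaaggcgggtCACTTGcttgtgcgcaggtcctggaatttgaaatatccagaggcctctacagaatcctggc
Dag1: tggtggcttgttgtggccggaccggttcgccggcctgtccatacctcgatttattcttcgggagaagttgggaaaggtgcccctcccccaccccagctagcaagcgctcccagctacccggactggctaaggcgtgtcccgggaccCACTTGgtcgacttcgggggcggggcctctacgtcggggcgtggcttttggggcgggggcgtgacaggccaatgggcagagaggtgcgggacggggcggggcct
Sgca: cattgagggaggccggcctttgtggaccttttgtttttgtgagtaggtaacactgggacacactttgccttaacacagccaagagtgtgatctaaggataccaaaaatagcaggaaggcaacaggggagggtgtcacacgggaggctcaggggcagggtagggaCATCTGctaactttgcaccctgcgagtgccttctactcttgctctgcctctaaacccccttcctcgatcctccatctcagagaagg
Both strands were searched for the E-box of myogenic factors (CANNTG), the CArG box of serum response factor and the MEF2 box of the MEF2 factors, which p38 kinases are known to phosphorylate. The Dmd window held 2 E-boxes, starting 173 and 61 bases before the start, and 1 CArG box starting 98 bases before it, with no overlap between them. Dag1 held 1 E-box at 104 bases and Sgca 1 at 86 bases, and none of the 3 windows held a MEF2 box. Of 32851 windows of the same length, 66.2% held an E-box, 1.47% a CArG box and 0.508% a MEF2 box. Of the windows not printed, that of Sgcb, a called member, held none of these motifs, nor did the window of a second Dmd start, while those of Utrn and Sgcd, which were not called, held 7 and 2 E-boxes. The window of a second Dag1 start held 1 E-box, starting 247 bases before it, the same match as in the printed Dag1 window. The windows of Utrn, Sgcd and the second Dmd start lie inside the annotated spans of their genes, at internal starts. Those of Sgcb and of the second Dag1 start overlap the annotated spans of their own genes. A match describes the letters only.

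Utrn encodes utrophin, the relative of dystrophin that is concentrated at the neuromuscular junction and can replace dystrophin at the membrane. It lies on chromosome 10 (12382188 to 12869365, minus strand) and measured 23.6, 32.1 and 27.7 in the controls. The αKO gave 26.3, 23.2 and 22.7 and the αγKO 26.2, 24.2 and 24.5. The groups overlapped, and neither difference passed the test (log2 −0.19, 95% interval −0.45 to 0.07, limma adjusted p = 0.271; log2 −0.14, −0.40 to 0.12, 0.383). The intervals leave room for a fall of up to 0.45 and a rise of up to 0.12 on the log2 scale. Within each library, and per kilobase of the longest coding transcript, Dmd exceeded Utrn 2.39-fold ± 0.414 in the controls, 1.51-fold ± 0.445 in the αKO and 1.47-fold ± 0.0513 in the αγKO (SD, n = 3). The ratio ran from 2.10 to 2.86 in the controls, 1.002 to 1.804 in the αKO and 1.42 to 1.52 in the αγKO, so no knockout library reached the control range. No test was run on this ratio.

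Dag1 encodes the dystroglycan precursor, which is cut into the laminin-binding α subunit and the membrane-spanning β subunit. The gene lies on chromosome 9 (108204634 to 108263958, minus strand). It measured 201.7, 223.5 and 198.4 in the controls, 142.5, 180.3 and 203.5 in the αKO and 148.7, 140.6 and 128.7 in the αγKO. Library 3 of the αKO lay inside the control range, whereas all 3 libraries of the double knockout lay below it. Dag1 fell 1.49-fold in the αγKO (log2 −0.57, 95% interval −0.86 to −0.29, limma adjusted p = 0.0143). That call was lost without control 2 (adjusted p = 0.051), without αγKO 2 (0.0546) or without αγKO 3 (0.0592), with log2 differences between −0.58 and −0.52. In the αKO the difference did not pass (log2 −0.26, 95% interval −0.54 to 0.03, limma adjusted p = 0.184), and it passed only without library 3 of that group (log2 −0.37, adjusted p = 0.0476).

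The sarcoglycans form a subcomplex beside dystroglycan, and mutations in their genes cause limb-girdle muscular dystrophies. Sgcb (β-sarcoglycan, chromosome 5, 73632749 to 73647790, minus strand) measured 113.2, 110.6 and 113.0 in the controls, 80.9, 92.3 and 97.6 in the αKO and 78.8, 79.2 and 76.5 in the αγKO. All knockout libraries lay below the controls, and the 3 double knockout libraries also lay below the 3 αKO libraries. Sgcb fell 1.43-fold in the αγKO (log2 −0.52, 95% interval −0.70 to −0.33, limma adjusted p = 0.00551). In the αKO it fell 1.24-fold (log2 −0.32, 95% interval −0.50 to −0.13, limma adjusted p = 0.0311). The call in the αKO was lost without control 1, 2 or 3 (adjusted p = 0.0993, 0.0802 and 0.104), without αKO 2 (0.0634) or without αγKO 3 (0.0529), with log2 differences near the main one.

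Sgca (α-sarcoglycan, chromosome 11, 94962791 to 94976327, minus strand) measured 170.5, 171.2 and 172.1 in the controls. The αKO gave 142.4, 153.7 and 175.2 and the αγKO 141.1, 163.4 and 161.4. The double knockout libraries lay below the narrow control range, but the spread within each knockout was far wider than that of the controls, and neither difference passed (log2 −0.13 and −0.14, limma adjusted p = 0.373 and 0.282). Sgcd (δ-sarcoglycan, chromosome 11, 46896253 to 47988969, minus strand) was low in all groups, at 4.19 to 6.14, 5.48 to 7.16 and 3.84 to 5.85, and did not pass (log2 0.19 and −0.09, limma adjusted p = 0.461 and 0.713). These values stand for 103 to 195 inferred reads, which limits what could be detected. Per kilobase, the ratio of Sgca to Sgcb ran from 3.31 to 3.40 in the controls, 3.66 to 3.94 in the αKO and 3.93 to 4.63 in the αγKO, with no overlap between control and knockout libraries.

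Dtna encodes α-dystrobrevin, a dystrophin relative on the inner side of the membrane that binds syntrophins (chromosome 18). It measured 82.8, 82.2 and 76.4 in the controls, 61.9, 64.9 and 72.6 in the αKO and 57.2, 58.5 and 50.5 in the αγKO. The 3 groups did not overlap. Dtna fell 1.45-fold in the αγKO (log2 −0.53, 95% interval −0.74 to −0.33, limma adjusted p = 0.00641). In the αKO the difference missed the threshold (log2 −0.27, 95% interval −0.48 to −0.07, limma adjusted p = 0.0673) and passed only without library 3 of that group (log2 −0.34, adjusted p = 0.0294). Sntb1, which encodes the adaptor β1-syntrophin (chromosome 15, 55636388 to 55906949, minus strand), measured 4.01 to 5.33, 3.86 to 4.39 and 2.89 to 4.17. Its groups overlapped and it did not pass in either knockout (log2 −0.13 and −0.35, limma adjusted p = 0.558 and 0.0978). Its values stand for 75 to 131 inferred reads, which limits what could be detected for Sntb1. With quantile normalisation the Sntb1 difference in the αγKO passed (log2 −0.46, adjusted p = 0.0462).

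Counted over libraries rather than by the test, 3 members lay wholly below the controls in the αKO (Dmd, Sgcb and Dtna), where 21.1% of all tested genes did so and 17.6% lay wholly above (38.6% either way). In the αγKO 5 did (Dmd, Sgca, Sgcb, Dag1 and Dtna), beside 28.6% of all tested genes, with 26.4% wholly above (55% either way). Within the αKO, 6 of the 8 members were lowest in library 1, and Utrn and Sgcd were highest there.

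The deposited scaling bears on the size of these falls. Divided by the total of the table instead, an alternative chosen after seeing the data, the median of all tested genes moved up by 0.18 in both knockouts on the log2 scale. The share of called genes that were lower then went from 58.7% to 19.9% and from 56.2% to 20.0%. Dmd was still called in both (log2 −0.68, adjusted p = 0.0107; log2 −0.61, adjusted p = 0.0131). Sgcb (log2 −0.31), Dag1 (−0.36) and Dtna (−0.32) were called in the αγKO, and Sgcb lost its call in the αKO (log2 −0.11, adjusted p = 0.258).

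Levels of different members were compared per kilobase of the longest coding transcript in GENCODE M21. In the controls the order was Sgca at 99.3 ± 0.455, Dag1 at 36.7 ± 2.41, Sgcb at 29.6 ± 0.381, Dtna at 12.8 ± 0.557, Dmd at 5.28 ± 0.289, Utrn at 2.25 ± 0.345, Sgcd at 2.12 ± 0.399 and Sntb1 at 0.928 ± 0.139 (normalised value per kb, SD, n = 3). Utrn and Sgcd overlapped between libraries, and each other pair of neighbours was separate. In the αKO, the ranges of Dmd (2.90 ± 0.668) and Sgcd (2.47 ± 0.389) overlapped, as did those of Dag1 (31.0 ± 5.44) and Sgcb (23.8 ± 2.26). Within each αKO library Dag1 still lay above Sgcb. In the αγKO, the range of Dag1 (24.6 ± 1.78) lay above that of Sgcb (20.6 ± 0.387), and that of Dmd (2.97 ± 0.225) above those of Sgcd and Utrn. Per kilobase of all annotated exons the control order was the same except that Sntb1 (0.858) passed Sgcd (0.630). The ratio of Dag1 to Dmd per kilobase was 6.95 ± 0.379 in the controls, 10.8 ± 1.02 in the αKO and 8.30 ± 0.324 in the αγKO, and its 3 groups did not overlap.

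**Figure D2:**
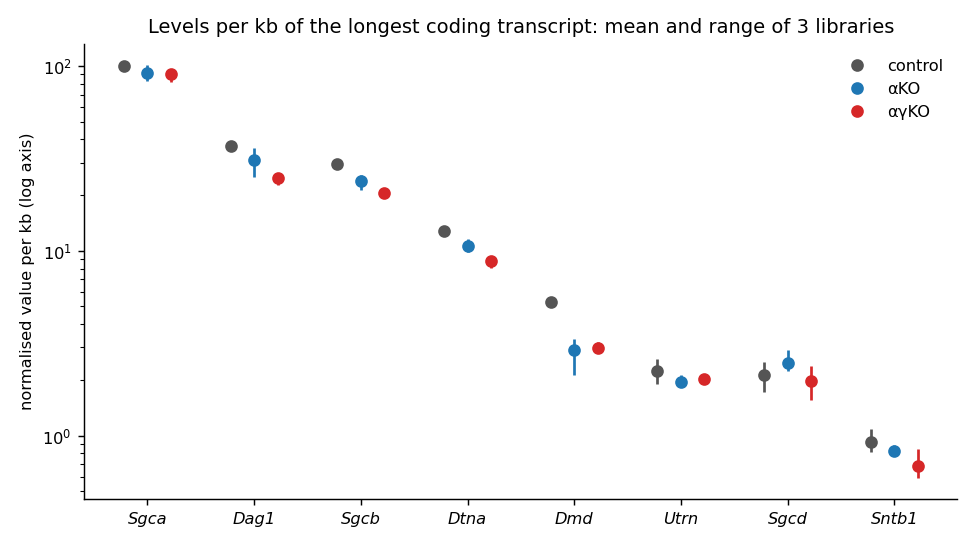
Normalised value per kb of the longest coding transcript (y axis, log scale) for each member, as the mean (point) and range (line) of the 3 libraries of a group. Sgca is highest and Sntb1 lowest in all 3 groups, and Dmd comes close to Utrn and Sgcd in the knockouts.

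The other subunits and partners of the complex were read from a list of 10 genes, of which 7 had a row in the table and all 7 were tested. In the αKO 1 was lower (Nos1) and 0 higher, beside 10.4% and 7.32% of all tested genes. In the αγKO 1 was lower (Nos1) and 2 higher (Dtnb and Cav3), beside 14.4% and 11.2%. The list medians were −0.02 and 0.06. Nos1 encodes neuronal nitric oxide synthase, which the complex holds at the membrane through dystrophin. It measured 83.7, 78.4 and 80.4 in the controls, 30.2, 32.2 and 32.7 in the αKO and 35.3, 22.4 and 25.6 in the αγKO. Every control lay far above every knockout library. Nos1 fell 2.502-fold in the αKO (log2 −1.32, limma adjusted p = 0.000934) and 2.89-fold in the αγKO (log2 −1.53, limma adjusted p = 0.000538). It stayed called under all 21 alternatives in each comparison.

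Dtnb (β-dystrobrevin) rose from 2.13 ± 0.247 to 3.73 ± 0.519 in the αγKO (SD, n = 3; log2 0.59, limma adjusted p = 0.0242). Cav3, which encodes the muscle caveolin that binds dystroglycan, rose from 36.3 ± 1.26 to 46.6 ± 2.09 there (SD, n = 3; log2 0.35, limma adjusted p = 0.0249, and adjusted p = 0.0507 with the replicate number as a block). Each of these 2 calls was lost when any 1 control, αγKO 2 or αγKO 3 was left out (adjusted p up to 0.0975 for Dtnb and 0.0986 for Cav3). Dtnb was low, at 1.96 to 2.41 in the controls, and also lost its call with quantile normalisation (limma adjusted p = 0.061). Sgce, Sspn, Sntb2 and Drp2 passed in neither comparison, with log2 differences between −0.16 and 0.15.

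**Figure D3:**
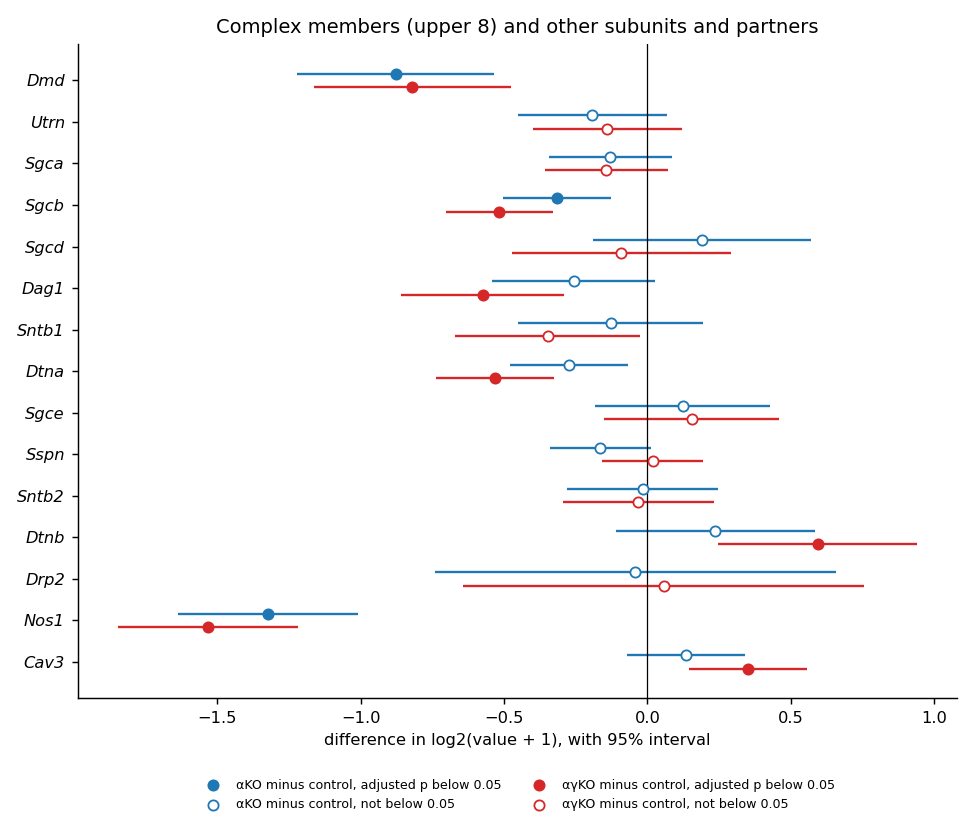
Difference from control in log2(value + 1), x axis, with its 95% interval for the 8 members and the 7 other subunits and partners; filled points passed at an adjusted p below 0.05. Nos1 lies farthest to the left at −1.32 and −1.53, followed by Dmd at −0.88 and −0.82.

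Dystroglycan binds laminin only after its α subunit has been given a chain of unusual sugars, and defects in the enzymes that build it cause dystroglycanopathies. Of 16 genes of this pathway, 15 had a row and were tested. In the αKO 3 were lower and 1 higher, beside 10.4% and 7.32% of all tested genes. In the αγKO 3 were lower and 2 higher, beside 14.4% and 11.2%. The list medians were −0.11 and −0.01. The 3 lower genes were the same in both knockouts, which share their controls. B3galnt2, which adds a sugar to the core of the chain, measured 77.3 ± 8.90, 53.6 ± 2.55 and 37.5 ± 5.20 (SD, n = 3; log2 −0.52 and −1.03, limma adjusted p = 0.0183 and 0.00157). Dpm2, a subunit of the enzyme that makes the mannose donor, rose from 6.23 ± 0.638 to 9.66 ± 1.86 and 10.8 ± 0.668 (SD, n = 3; log2 0.55 and 0.71, limma adjusted p = 0.0232 and 0.00873).

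Chosen after their values were seen, to account for the counts, the other called genes of this list were Tmem5, Pomgnt1 and B4gat1. Tmem5, now named Rxylt1, encodes a xylose transferase and fell from 30.9 ± 0.675 to 19.9 ± 3.74 and 19.1 ± 3.11 (SD, n = 3; log2 −0.62 and −0.68, limma adjusted p = 0.021 and 0.0138). Pomgnt1 fell by 0.30 and 0.23 on the log2 scale (limma adjusted p = 0.0229 and 0.0429; 0.0886 in the αγKO with the replicate block). B4gat1, a glucuronic acid transferase of the chain, rose in the αγKO (log2 0.45, limma adjusted p = 0.0198). Several of these calls rested on the number of libraries. In the αKO those of Dpm2, Tmem5 and Pomgnt1 were lost when any 1 control was left out (adjusted p up to 0.0882, 0.0743 and 0.0872), that of Pomgnt1 also without αKO 2, and that of B3galnt2 without control 1, control 3 or αKO 2 (up to 0.0783). In the αγKO those of Tmem5 and B4gat1 were lost without control 1, αγKO 2 or αγKO 3 among others (up to 0.0622 and 0.0786), and that of Pomgnt1 in 7 of 9 such fits (up to 0.136). The calls of B3galnt2 and Dpm2 in the αγKO held in all 9.

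**Figure D4:**
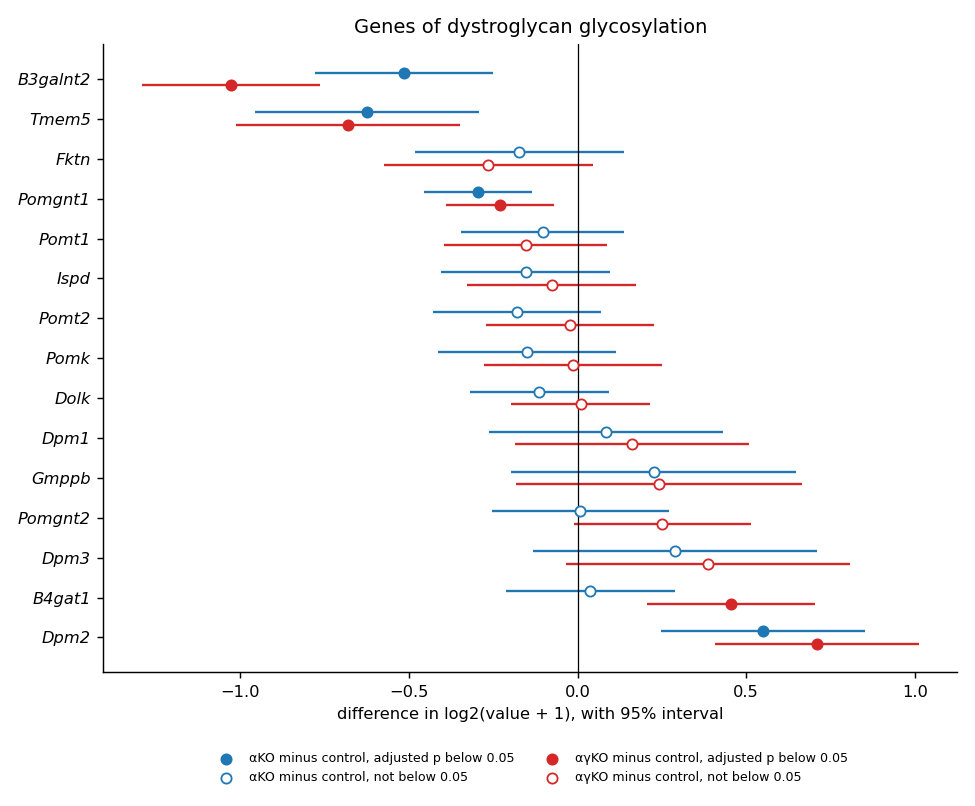
Difference from control in log2(value + 1), x axis, with its 95% interval for the 15 tested genes of dystroglycan glycosylation, ordered by the αγKO value; filled points passed at an adjusted p below 0.05. B3galnt2 and Tmem5 lie lowest and Dpm2 highest.

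Beyond the complex, the called genes of the neighbouring systems are given by list. Of all tested genes, 17.8% were called in the αKO and 25.6% in the αγKO. Of 10 matrix ligand genes, Lamb2 (laminin β2) was lower in the αKO (log2 −0.28, limma adjusted p = 0.0487) and Bgn (biglycan, a dystroglycan and sarcoglycan ligand) higher in the αγKO (log2 1.06, limma adjusted p = 0.0391, and 0.0569 with the replicate block). Lama2, the laminin α chain of mature muscle, was called in neither. Of 10 genes of the integrin linkage, the other laminin receptor system of the fibre, Lims1 was lower in the αKO (log2 −0.49, limma adjusted p = 0.029) and Fermt2 in the αγKO (log2 −0.54, limma adjusted p = 0.0406, and 0.0723 with the replicate block). Each of these 4 calls was lost when any 1 control was left out (adjusted p from 0.0664 to 0.16), and those of Lamb2 and Bgn also without most single knockout libraries, that of Fermt2 without αKO 2, αγKO 2 or αγKO 3, and that of Lims1 without αKO 2. Without αKO 3, Bgn (adjusted p = 0.024) and Fermt2 (0.0316) passed in the αKO as well, and without αKO 1 or 3 Lamb2 passed in the αγKO (0.0212 and 0.0466).

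Among 10 genes of the intermediate filaments and other cytoskeletal linkers, Synm and Sync were lower in both knockouts. Synm encodes synemin, which binds dystrophin and α-dystrobrevin, and measured 1135 ± 53.2, 610.4 ± 186.7 and 659.8 ± 93.8 (SD, n = 3; log2 −0.94 and −0.79, limma adjusted p = 0.0169 and 0.0259). Sync encodes syncoilin, a partner of α-dystrobrevin and desmin, and measured 24.2 ± 2.24, 14.0 ± 0.731 and 14.1 ± 1.46 (SD, n = 3; log2 −0.75 and −0.74, limma adjusted p = 0.00333 and 0.00408). The Sync call held in all 9 fits that left out 1 library, while that of Synm was lost without any 1 control in either knockout (adjusted p up to 0.0658 and 0.0822) and without αγKO 2 (0.0997) or αγKO 3 (0.0833) in the double knockout. Krt18, a simple epithelial keratin, measured 0.69 to 1.06 in the controls, 21.3, 4.51 and 3.18 in the αKO and 2.43 to 3.20 in the αγKO. It was called higher in the αKO (log2 2.07, limma adjusted p = 0.0212), a value that fell to 1.33 without library 1 and a call that was lost without any 1 control (up to 0.0692). In the αγKO it passed only without αKO 1 among these fits (adjusted p = 0.00136).

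Of 14 membrane repair genes, 2 were higher and 2 lower in the αKO, and 4 were higher and 2 lower in the αγKO. Capn3, the muscle calpain mutated in a limb-girdle dystrophy, fell from 130.9 ± 5.11 to 82.1 ± 14.9 and 69.6 ± 4.37 (SD, n = 3; log2 −0.68 and −0.90, limma adjusted p = 0.00836 and 0.00375). Dysf, which encodes the membrane repair protein dysferlin, rose in the αKO from 71.1 ± 0.633 to 95.5 ± 5.56 (SD, n = 3; log2 0.42, limma adjusted p = 0.00935). In the αγKO Dysf measured 82.1 ± 5.21 and did not pass (log2 0.20, adjusted p = 0.0853), although it did without αKO 1 (adjusted p = 0.0434). Cav1 fell in both (log2 −0.42 and −0.43, limma adjusted p = 0.024 and 0.019). Anxa5 rose in the αγKO (log2 0.85, limma adjusted p = 0.0308). The remaining called genes, named after their values were seen, were Capn2, higher in the αKO (log2 0.31, limma adjusted p = 0.0438), and Anxa1, Anxa2 and Anxa6, higher in the αγKO (log2 0.63, 1.01 and 0.23, limma adjusted p = 0.0496, 0.0464 and 0.0362). The calls of Capn3 and of Dysf in the αKO held in all 9 fits that left out 1 library. Those of Cav1 were lost without control 2 or 3 in either knockout, without αKO 2 in the αKO and without αγKO 2 or 3 in the αγKO (adjusted p up to 0.1). That of Anxa5 was lost without any 1 control or αγKO library (up to 0.104), and Anxa5 passed in the αKO without library 3 of that group (0.021).

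The falls of the complex members came with shifts in several of the 11 marker lists of other cells and fibre states. The summed value of 10 mature fast fibre markers was 94.9% to 103.1% of the control mean in the controls, 56.1% to 86.2% in the αKO and 70.1% to 73.1% in the αγKO. Of these 10, Acta1 was called lower in the αKO and Actn3 in the αγKO. The shares of all tested genes called were 10.4% lower and 7.32% higher in the αKO, and 14.4% and 11.2% in the αγKO. The sum of 8 markers of new or regenerating fibres ran from 74.0% to 116.8%, 149.3% to 832.9% and 178.8% to 644.7%, and 5 and 3 of the 8 were called higher. Mymx, which encodes the fusion protein myomixer, was near 0 in the controls (0.0203 to 0.108). The sum of 10 macrophage markers ran from 87.8% to 116.6%, 168.2% to 381.6% and 223.4% to 360.5%, and 9 and 10 of the 10 were called higher. The sum of 10 fibro-adipogenic progenitor markers ran from 90.8% to 118.0%, 102.7% to 162.9% and 138.3% to 189.8%, and 1 and 6 were called higher. Satellite cell sums (7 markers) also lay above the controls (97.1% to 104.5%) in all 6 knockout libraries, at 107.4% to 147.3% and 123.0% to 139.4%, with 1 called higher in each. Smooth muscle and pericyte sums lay below the controls (90.1% to 110.4%) in all 6, at 81.3% to 85.1% and 78.1% to 86.8%, with 2 and 3 of the 10 called lower. Neuromuscular junction sums ran from 93.5% to 104.2%, 111.3% to 205.7% and 97.4% to 153.1%, and 3 and 0 of the 10 were called higher, with the highest sum in library 1 of the αKO. Endothelial sums (98.5% to 102.5%, 92.5% to 99.5% and 85.1% to 94.9%) and adipocyte sums (77.5% to 118.4%, 62.6% to 95.2% and 64.9% to 73.6%) lay below the controls in the αγKO and overlapped with them in the αKO, with 2 of 10 and 1 of 8 called lower in the αγKO and 0 and 1 in the αKO. Most of the adipocyte sum was Car3, whose mean was 1915 in the controls and 998.6 in the αγKO. In the αγKO, 5 of the 8 adipocyte markers had log2 differences above 0 and 3 below, with a median of 0.27. Endothelial markers were split 5 and 5 there, with a median of 0.01. Slow fibre and Schwann cell sums overlapped between all groups, and 0 of their markers were called. In the αKO the lowest fast fibre sum and the highest new fibre and macrophage sums were all in library 1, in which 6 of the 8 members were also lowest. The αγKO did not repeat this, as its highest new fibre and macrophage sums were in library 2. In that library Sgca, Sgcb, Sgcd, Sntb1 and Dtna were the highest of their group. Utrn was lowest there, and Dmd and Dag1 lay between the other libraries. The part of these markers in the members' falls was not tested.

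**Figure D5:**
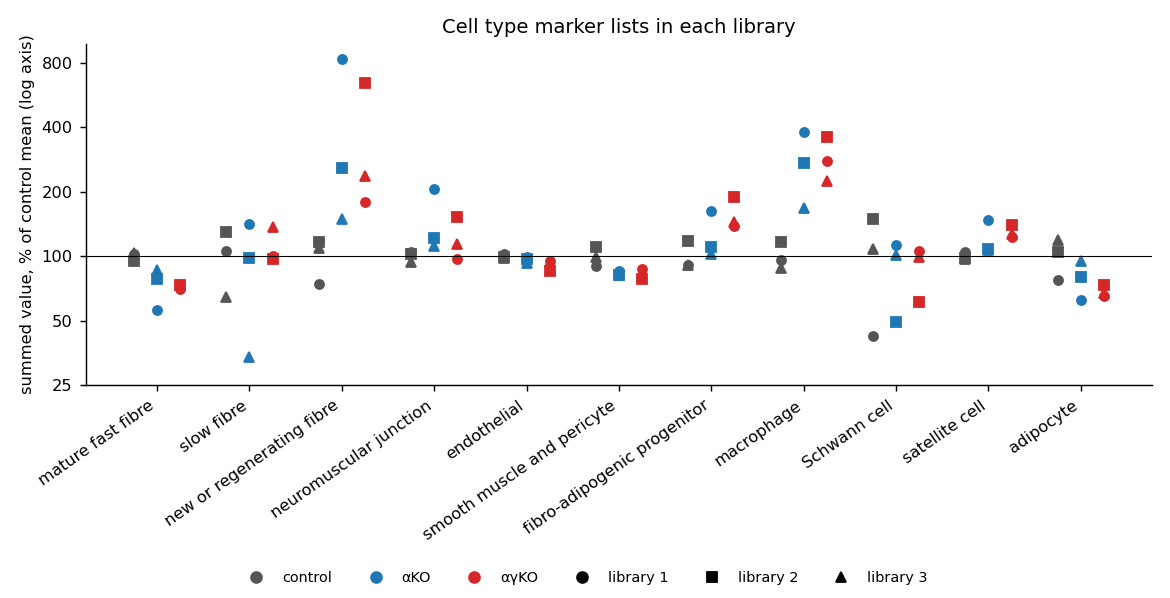
Summed value of each marker list in each library as a percentage of the control mean (y axis, log scale); colours are groups and symbols library numbers. The new fibre and macrophage sums are above the controls in all 6 knockout libraries and the fast fibre sums below them.

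The 2 knockouts, whose labels differ by p38γ, were also compared directly. Mapk12 was already lower in the αKO than in the controls (log2 −0.49, limma adjusted p = 0.00601). Whether the 2 groups also differed in age or sex is not given, so this comparison does not isolate the loss of p38γ. By limma 0 of the 8 members were called, where 0.442% of all tested genes were called (0.122% higher and 0.32% lower in the αKO). At an unadjusted p below 0.05, 3 members were higher in the αKO than in the αγKO, beside 5.65% of all tested genes in that direction and 6.33% in the other. These were Sgcb (log2 0.20, 95% interval 0.01 to 0.39, limma adjusted p = 0.381), Dag1 (log2 0.32, 0.03 to 0.60, 0.362) and Dtna (log2 0.26, 0.05 to 0.46, 0.302). The libraries of the 2 knockouts did not overlap for Sgcb and Dtna, as for 6.73% of all tested genes in that direction, 7.58% in the other and 14.3% in either. Dmd differed by −0.06 with an interval from −0.40 to 0.29, which covers differences of that size either way. This comparison depended on library 1 of the αKO. Without it Sgcb (log2 0.28, adjusted p = 0.0249), Dag1 (log2 0.46, adjusted p = 0.0156) and Dtna (log2 0.31, adjusted p = 0.0474) passed, and the genes called went from 58 to 1862. The falls that passed against control in the double knockout alone, those of Dag1 and Dtna, were therefore not shown to differ between the knockouts with all 9 libraries.

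For each member called in a knockout, the genes with the most similar profile were taken as those with the smallest root mean square difference over the 9 libraries, each gene centred on its own mean log2(value + 1). For Dmd these were Ubr3, a ubiquitin ligase (0.0585), and Cacna2d1, a calcium channel subunit (0.0628). For Sgcb they were the septin Sept11 (0.0438) and the translation termination factor Etf1 (0.0528). For Dag1 they were the ubiquitin ligase Ube3c (0.0538) and the zinc finger gene Rlf (0.0584), and for Dtna the septin Sept7 (0.0655) and the zinc finger gene Zfp661 (0.0671). The members themselves were left out of the search.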

How the data were processed

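The authors deposited 1 table of signal values, genes by libraries, which they call normalised counts. Per the submitters' processing notes, the tools were CASAVA 1.8, cutadapt, RSEM 1.3.1 and limma, and the genome was GRCm38. The scaling, the filter and the annotation are not given in the sources used here. Per the labels' protocols, RNA had an RIN above 8, and 100 ng entered a strand-specific kit sequenced to 51 bases. Within 0.001 reads, signal values were odd multiples of the smallest value in their column, and depth was inferred from that step. No count test was run, since nothing in the sources calls these steps reads.

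Of 13179 genes, 13137 reached a value of 1 in 3 or more libraries. Their log2(value + 1) entered 1 limma fit (version 3.58.1, R 4.3.3) of all 9 libraries, with a trend in the empirical Bayes step. A gene was called at a Benjamini-Hochberg adjusted p below 0.05, adjusted per comparison. The 3 libraries per group limit the precision. Members were also given a two-sided exact permutation test. Coordinates came from GENCODE M21 (13166 identifiers matched) and promoter windows from RefSeq on GRCm38.p6; 2 listed genes were found through RefSeq synonyms. Every sample column was used. The code was tested on simulated data. Plots were made with matplotlib 3.10.9 (Python 3.11.15).

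The members and lists were chosen with earlier results of these data known. A few genes of these lists are not reported here and are left out of the list counts. Named genes were the targets, the members, all tested subunits and partners, up to 4 called genes of each other list by lowest p, and the 2 nearest profiles of each called member. The alternatives varied the filter, pseudocount, scaling, spread estimate and libraries fitted, added the replicate block, and dropped each library in turn. Scaling to the table total was chosen after seeing the data.

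All groups carry the replicate numbers 1 to 3. Across genes, deviations from the group mean correlated at 0.111, 0.124 and 0.148 between αγKO and control libraries of the same number, so values with the replicate block stand beside the αγKO results it changed. The labels do not state such a pairing. Same-numbered libraries of the other comparisons included negative correlations.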

Additional observations from a re-analysis of the deposited data

How the results depend on the processing

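Over all alternatives, 1280 of 1463 gene results kept their direction and call, 135 lost a call, 18 gained one and 30 turned direction. Dmd and Nos1 kept both calls throughout, as did Sgcb and Dtna in the αγKO. For the αKO, 1 member was called with quantile normalisation, with the 6 libraries of the contrast alone, with the replicate block (Sgcb adjusted p = 0.0646) and with scaling to the table total. The genes called went from 2332 to 1379 with 6 libraries. Leaving out 1 library gave 801 to 3241 genes and 1 to 4 members. For the αγKO, 6 libraries gave 5478 genes in place of 3368, and leaving out 1 library gave 844 to 5346 genes and 3 to 4 members. For αKO minus αγKO, 58 genes became 22 with 6 libraries and 32 with the replicate block, and leaving out 1 library gave 13 to 1862 genes and 0 to 3 members. The replicate block changed no other member call. The fits with 6 libraries or with 1 left out use fewer samples. In the αγKO some of them called fewer genes and others more, up to 5478 with 6 libraries and 5346 without αKO 1. In those fits the standard error of Dmd in the αγKO was 0.077 and 0.075, against 0.154 with all 9 libraries. Its log2 difference stayed at −0.82. The cause of the changes was not tested.

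Directions that turned belonged to differences that never passed while turned. In the αKO, quantile normalisation gave 0.0067 for Sgca, and scaling to the table total gave 0.039 for Sspn, 0.16 for Sntb2, 0.14 for Drp2, 0.0055 for Utrn, 0.075 for Sgca and 0.037 for Sntb1 (log2). In the αγKO, scaling to the table total gave 0.15 for Sntb2, 0.064 for Utrn, 0.067 for Sgca and 0.084 for Sgcd. With 1 library left out, the αKO log2 differences ran from −0.069 to 0.073 for Sntb2, −0.45 to 0.22 for Drp2 and −0.059 to 0.11 for B4gat1. Those of the αγKO ran from −0.014 to 0.065 for Sspn, −0.083 to 0.033 for Sntb2, −0.35 to 0.32 for Drp2, −0.086 to 0.065 for Lims1 and −0.21 to 0.037 for Sgcd. Those between the knockouts ran from −0.17 to 0.15 for Dmd and −0.066 to 0.082 for Sgca.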
